A study of Mus musculus with 1536 samples.

Results

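The genes described here were 43 stress response genes, of 23168 genes listed for lymphatic endothelial cells (LECs) of the adult mouse nasopharynx. They were chosen by symbol and fell into 3 arms. These were 13 heat shock genes, 13 genes of the endoplasmic reticulum and its unfolded protein response, and 17 targets of the transcription factor Atf4 or of oxidative stress. Levels and correlations were taken over every cell of the matrix, and cells with a value above 1 for *Cldn11* were set against the rest. All 43 symbols were in the matrix.

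The study profiled LECs of the nasopharyngeal plexus, a route by which cerebrospinal fluid leaves the skull, to look for changes with age, and the adult cells are described here. The cells came from C57BL/6 mice aged 10–12 weeks, with no treatment named, and the mucosa of 30 mice of both sexes was pooled. The tissue was digested with collagenase IV, dispase and DNase I at 37 °C for 30 min, and living CD31+ PDPN+ cells, stained also for EpCAM, were sorted into single wells for Smart-seq3, a plate method that reads whole transcripts. Neither the labels nor the column names gave a mouse or a plate, so the cells were 1 sample, no test between cells was made, and SDs and intervals describe cells and not mice.

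Heat shock proteins are chaperones that hold or refold other proteins, and the factor Hsf1 raises their genes when unfolded protein builds up in the cytosol. In the endoplasmic reticulum, the sensors Ern1 (Ire1) and Atf6 and the factor Xbp1 raise chaperones and disulfide isomerases, while several stress kinases slow translation and let *Atf4* mRNA be translated. Immediate early genes such as *Fos*, *Junb* and *Egr1* are induced within minutes of many stimuli, enzymatic digestion of tissue among them.

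The cells held 7433–3524358 reads each, with a median of 350746, and 2001–7236 genes, and rho between reads and genes was 0.82. All 5 LEC markers were broadly found, from *Pdpn* in 95.2% of cells to *Flt4* in 99.8%. Of the lists for other cell types, the immune gene *Ptprc* was found in 0 cells, which allows a share of up to 0.356% (3 cells; the exact 95% bound was 0.437%), and *Epcam* in 0.475%, and intervals and limits here cover counting error only. Single markers of other types were more common. The blood endothelial genes *Plvap* and *Gpihbp1* were found in 77.8% and 70.7% of cells, and *Vwf*, *Flt1* and *Aqp7* in 5.11%, 2.49% and 0.475%. The fibroblast gene *Dcn* was found in 12.4%. At least 3 of 5 blood endothelial markers were found in 43 cells, immune markers in 2 cells and fibroblast markers in 1 cell.

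Sequence shared by the promoters was looked at first, because it shows which members carry a known stress element close to their start. RefSeq promoters (GRCm38.p6) were held for 37 of the 43 members, 47 promoters in all, and the 250 bases before each start were searched on both strands. The 6 without a sequence here were *Hspa8*, *Hsp90aa1*, *Hsp90ab1*, *Hsf1*, *Atf6* and *Hmox1*. The motifs were picked with the genes known, and a match describes letters and does not show binding.

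The heat shock element pair, GAANNTTC or TTCNNGAA, was in 7 of 9 heat shock members with a sequence, in 0 of 12 endoplasmic reticulum members and in 4 of 16 Atf4 and oxidative members, against 12.8% of all 32851 promoters. The triple form, GAANNTTCNNGAA or TTCNNGAANNTTC, was in 0.466% of promoters and in both genes of the mitochondrial chaperonin, *Hspd1* and *Hspe1*. Exons of these 2 genes overlap in the GENCODE annotation. From their RefSeq starts, which are nearby, the genes lie head to head. Between these RefSeq starts lies 1 run of repeats, shown here on the strand of *Hspe1* with the overlapping repeats in capitals.
Hspe1 (chr1:55088053-55088082, plus strand): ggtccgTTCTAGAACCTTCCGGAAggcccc
The inducible Hsp70 genes *Hspa1a* and *Hspa1b* lie 12918 bases apart on chromosome 17. The 150 bases before their starts matched at 99.3% of 150 positions and held the same heat shock element pair, in capitals. The genes themselves are near-identical copies, and their reads may be hard to tell apart.
Hspa1a (chr17:34972157-34972306, minus strand): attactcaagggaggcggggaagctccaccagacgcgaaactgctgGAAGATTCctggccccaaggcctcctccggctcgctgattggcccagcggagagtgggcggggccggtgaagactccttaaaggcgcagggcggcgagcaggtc
Hspa1b (chr17:34959239-34959388, minus strand): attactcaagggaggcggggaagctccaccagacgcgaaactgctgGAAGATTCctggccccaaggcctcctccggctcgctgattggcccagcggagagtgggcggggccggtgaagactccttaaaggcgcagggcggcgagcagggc

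The endoplasmic reticulum stress element, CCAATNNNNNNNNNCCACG, was in 0.113% of all promoters. It was in 5 of 12 endoplasmic reticulum members and in 0 members of the other arms. The sites are shown with the element in capitals and 5 bases on each side, on the strand of the gene, and *Hsp90b1* held a pair of them. In *Calr* and in the second *Hsp90b1* site the element ran in the opposite direction.
Hspa5 (chr2:34772020-34772048, plus strand): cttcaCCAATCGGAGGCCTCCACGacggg
Hsp90b1 (chr10:86705633-86705661, minus strand): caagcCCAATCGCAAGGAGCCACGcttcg
Hsp90b1 (chr10:86705528-86705556, minus strand): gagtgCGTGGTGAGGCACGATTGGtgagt
Calr (chr8:84847070-84847098, minus strand): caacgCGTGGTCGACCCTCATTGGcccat
Canx (chr11:50325795-50325823, minus strand): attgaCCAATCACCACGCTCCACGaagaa
Pdia6 (chr12:17266486-17266514, plus strand): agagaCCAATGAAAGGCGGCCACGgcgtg
The site where C/EBP and ATF factors pair, TGATGNAA, was in 3.45% of all promoters, in 4 of 16 Atf4 and oxidative members and in *Herpud1*. In *Asns* it overlapped a heat shock element pair. These sites are shown in the same way with 11 bases on each side.
Atf3 (chr1:191183425-191183454, minus strand): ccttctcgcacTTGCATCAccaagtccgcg
Nupr1 (chr7:126625562-126625591, minus strand): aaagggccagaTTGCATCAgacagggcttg
Asns (chr6:7693214-7693243, minus strand): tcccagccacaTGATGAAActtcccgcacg
Chac1 (chr2:119351038-119351067, plus strand): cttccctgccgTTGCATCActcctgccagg
Herpud1 (chr8:94386306-94386335, plus strand): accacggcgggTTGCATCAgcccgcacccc
The cyclic AMP response element TGACGTCA was in 1.55% of all promoters and, of the members, in *Ppp1r15a*.
Ppp1r15a (chr7:45526269-45526284, minus strand): ccggTGACGTCAgcac
The remaining motifs were the antioxidant response element TGACNNNGC, in 10 of 47 member promoters and 10.2% of all, and the AP-1 site TGANTCA, in 4 of 47 and 6.75% of all. The antioxidant element was in 3 of 16 Atf4 and oxidative members, *Asns*, *Sesn2* and *Txnrd1*, in 4 of 12 endoplasmic reticulum members and in 2 of 9 heat shock members.

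In the heat shock arm, constitutive chaperones were the main product. Levels between genes are given as mean reads per 10000 per kb of annotated exon, and levels of 1 gene as the natural log of reads per 10000 plus 1. *Hspa8*, the constitutive Hsp70, was found in 100% of cells (95% interval 99.6–100%) at 12.5 per kb, with a log value of 3.78 ± 0.720 (SD over cells) that ran from 0.192 over a median of 3.85 to 5.47. *Hsp90ab1*, the constitutive Hsp90, was found in 99.9% at 6.78 per kb and 2.91 ± 0.624. *Hspb1*, a small heat shock protein, was found in 80.3% (77.4–82.9%) at 3.26 per kb. The median of 22272 genes with an exon length was 0.0135 per kb, and all 13 heat shock members lay above it. So did every member of the other arms, down to *Sesn2* at 0.0171, so this does not set the heat shock arm apart. *Hspa8* alone made up 51.8% of the summed reads of the arm.

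The inducible members were found in fewer cells. *Hspa1a* was found in 29.2% of cells (26.2–32.4%) at 0.288 per kb, and *Hspa1b* in 46.3% (42.9–49.7%) at 0.368 per kb. *Hspa1b* was found in 63.8% of the cells with *Hspa1a* and in 39.1% of the others, and rho between them was 0.29. An antisense gene, *Gm20481*, overlaps *Hspa1a*, and strand and multiple mapping were not stated, so both values are uncertain. *Hspa1a* ran from 0 to a log value of 4.07 and its median cell was at 0, so it was high in few cells.

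The cofactors of these chaperones lay between. *Dnaja1* and *Dnajb1*, Hsp40 cofactors that pass substrates to Hsp70, were found in 97.4% and 81.5% of cells at 0.877 and 1.47 per kb. *Hsp90aa1*, the inducible Hsp90, was found in 91.6% at 1.23 per kb. *Hsph1* and *Bag3*, exchange factors of Hsp70, were found in 75.9% and 75.7%, at 0.321 and 0.523 per kb. *Hspd1* and *Hspe1* were found in 73.9% and 70.2%. The arm's own regulator *Hsf1* was its lowest member per kb, found in 54.8% (51.3–58.2%) at 0.131. This order depends on the annotated exon length, 7.10 kb for *Hsf1* and 2.97 kb for *Hspa1a*. Not divided by length, their means were 0.931 and 0.854 reads per 10000.

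In the endoplasmic reticulum arm, the main chaperones were found in nearly every cell, while the sensors were scarce. *Calr*, a lectin chaperone, was found in 95.1% of cells (93.5–96.5%) at 1.74 per kb, with a log value of 1.52 ± 0.773. *Hspa5*, the Hsp70 of this compartment, was found in 95.96% at 1.68 per kb and 1.79 ± 0.822. *Pdia3*, a disulfide isomerase, was found in 96.4% at 1.48 per kb. *Hsp90b1*, the Hsp90 of this compartment, and *Canx*, the membrane-bound partner of *Calr*, were found in 94.3% and 92.3%. The isomerases *Pdia6* and *Pdia4* were found in 72.8% and 59.4%. *Herpud1*, which serves degradation of misfolded protein, was found in 65.6%, and *Dnajb9*, a cofactor of *Hspa5*, in 54.99%.

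The sensors *Ern1* and *Atf6* lay at 0.0174 and 0.0365 per kb and were found in 27.1% (24.1–30.2%) and 40.1% (36.8–43.5%) of cells. *Xbp1*, whose mRNA Ern1 splices, was found in 60.7% at 0.3505 per kb. *Sdf2l1*, a cofactor of *Hspa5* raised by the unfolded protein response, was found in 5.46% (4.03–7.22%). Of the 13 members, 11 were found in at least 30% of cells, against 12 of 13 heat shock members and 12 of 17 in the third arm. Spliced *Xbp1* cannot be told from the unspliced form in these gene values.

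In the third arm, some stress-induced genes were found in nearly every cell and others in few. *Atf3*, a transcription factor induced by many stresses, was found in 94.9% of cells (93.2–96.3%) at 9.40 per kb, with a log value of 2.03 ± 1.57 that ran from 0 over a median of 2.04 to 5.21. *Ppp1r15a* (Gadd34), which restores translation after the stress kinases act, was found in 95.4% at 5.26 per kb and 2.16 ± 1.26. *Gdf15*, a secreted stress cytokine, was found in 48.1% (44.7–51.5%) at 2.04 per kb and 0.531 ± 1.06. For *Gdf15* the SD over cells was larger than the mean, and the median cell was at 0. *Atf4* itself was found in 93.8% at 1.87 per kb, and *Nupr1*, a small stress-induced nuclear protein, in 66.7% (63.5–69.9%) at 1.61 per kb. *Cdkn1a* (p21), the cell cycle inhibitor, and *Ddit4*, an inhibitor of mTORC1, were found in 76.1% and 80.05%.

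The Atf4 targets *Asns*, *Chac1* and *Sesn2* were found in few cells. *Asns*, asparagine synthetase, was found in 6.41% of cells (4.85–8.29%) at 0.0297 per kb. *Chac1*, which degrades glutathione, was found in 6.06% (4.54–7.89%) at 0.0381 per kb, and *Sesn2*, an amino acid sensor, in 7.13% (5.48–9.08%) at 0.0171 per kb. *Atf5* was found in 18.7% and the pseudokinase *Trib3* in 30.05%. *Ddit3* (Chop), the partner of *Atf4* in prolonged stress, was found in 45.6% at 0.508 per kb, although *Gm4189* and *Mars* overlap it. Among oxidative stress genes, *Hmox1*, heme oxygenase, was found in 56.9%, the reductases *Txnrd1* and *Nqo1* in 62.8% and 44.5%, and *Srxn1*, sulfiredoxin, in 14.7%. Thus 35 of the 43 members were found in at least 30% of cells and 12 in at least 90%. A lower share does not show an absent gene, since reads per cell differed widely. Exons of 14 members overlapped those of another gene, and their values may hold reads of both.

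**Figure D1:**
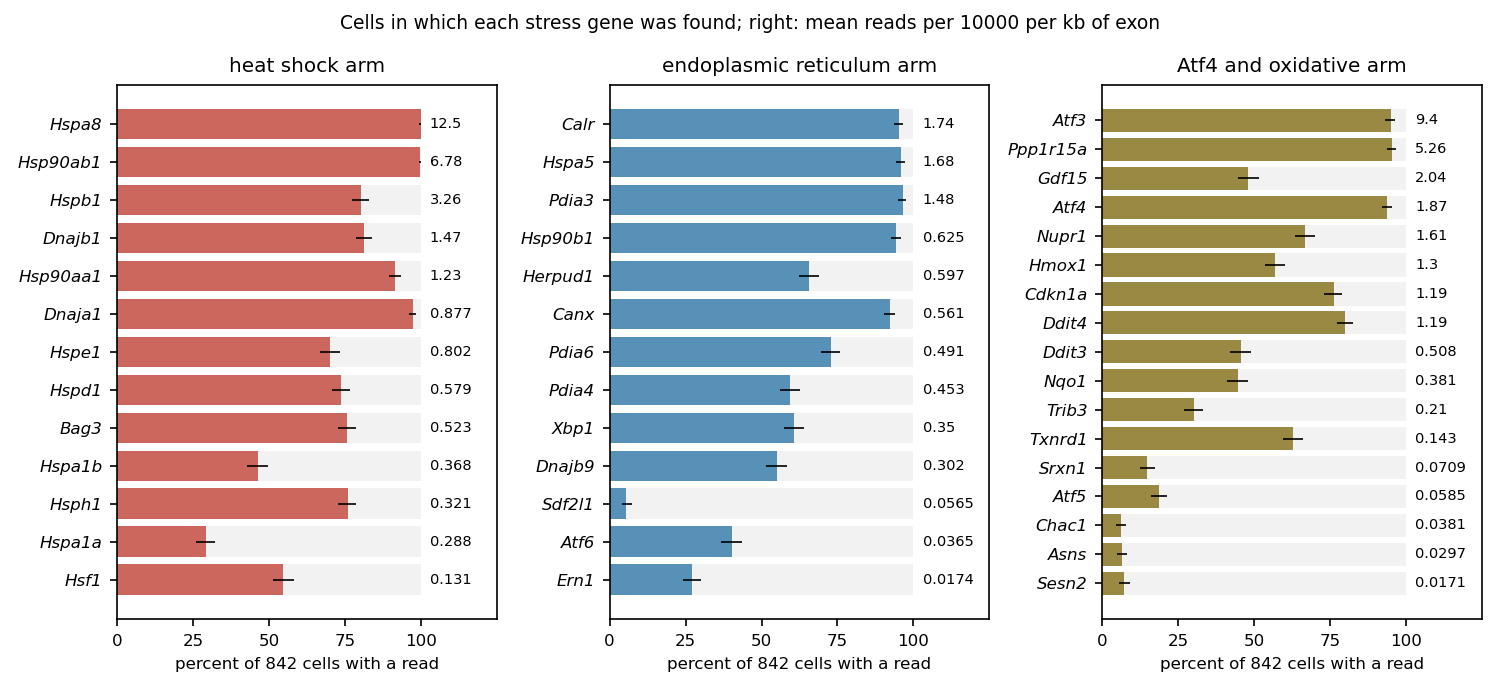
Percent of cells in which each of the 43 members was found, by arm, with exact 95% intervals that cover counting error only, and mean reads per 10000 per kb of exon at the right of each bar. *Hspa8* reached 100% and 12.5 per kb, *Atf3* 94.9% and 9.40, and *Sesn2* 7.13% and 0.0171.

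Some members were concentrated in few cells. The 42 cells (5%) highest for *Gdf15* held 66.4% of its summed reads per 10000, which ranked 13 of 5434 genes found in at least 30% of cells, whose median was 34.8%. The same share was 57.4% for *Hmox1* (rank 87), 48.4% for *Hspa1b*, 46.9% for *Trib3* and 46.2% for *Atf6*. With every cell thinned to 20000 reads, the shares for *Gdf15* and *Hmox1* were 68.1% and 58.2%. Even members were *Hsp90ab1* at 12.1%, *Hspa8* at 14.4% and *Pdia3* at 16.2%.

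Of the 42 cells highest for *Gdf15*, 2 (4.76%) were among the 42 highest for *Hmox1*, and rho between the genes was 0.068. Unrelated genes would share about 5% of these cells, so this overlap was near that share. *Gdf15* shared 7 of its 42 cells (16.7%) with *Nupr1*, 8 (19.05%) with *Atf3* and 1 (2.38%) with *Cdkn1a*. In its own top cells *Gdf15* ran from 3.22 to 5.67, beside a mean *Atf3* value of 3.29 there and 1.96 in the rest. The immediate early mean was 1.64 in those cells and 1.27 in the rest. Cells with *Cldn11* above 1 made up 13 of the 42 (30.95%) for *Gdf15* and 13 of 42 for *Hmox1*, against 17.2% of the remaining cells in each case. *Trib3* also had 13 of 42, while *Hspa1b* had 7 (16.7%) and *Atf6* 3 (7.14%).

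Heat shock members were more closely correlated with each other over cells than endoplasmic reticulum members were. The order of their median rho was reversed with the mean of the immediate early genes, described below, regressed out. Spearman correlations over all cells were computed for every pair of the 35 members found in at least 30% of cells. These points share wells, depth and digestion and are given without a test. Median rho was 0.13 over 66 pairs of heat shock members, 0.070 over 55 pairs of endoplasmic reticulum members and 0.088 over 66 pairs of Atf4 and oxidative members. Over all 14761461 pairs of the 5434 genes it was 0.034. Pairs above 0.2 made up 25.8%, 1.82% and 21.2% of the pairs in these arms and 0.194% of all pairs.

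Many of the largest values ran between arms. *Hspa8* and *Atf3* had a rho of 0.59, *Atf3* and *Ppp1r15a* 0.52, *Hspa8* and *Ppp1r15a* 0.50, *Dnajb1* and *Atf3* 0.47, and *Atf3* and *Cdkn1a* 0.46. The next 5 were *Atf3* with *Atf4* at 0.45 and with *Hsp90aa1* at 0.44, and *Ppp1r15a* with *Atf4* at 0.41, with *Dnajb1* at 0.40 and with *Hsp90aa1* at 0.40. *Atf3* or *Ppp1r15a* was thus in each of the 10 largest pairs. Thinning to 20000 reads left the pair of *Hspa8* and *Atf3* at 0.57, and among cells with *Cldn11* not above 1 it was 0.59. The lowest rho, −0.14, was between *Ddit4* and *Nqo1*.

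Pairs known to work together varied in rho. *Hspa8* and its cofactor *Dnajb1* had a rho of 0.39, and the Hsp90 genes *Hsp90aa1* and *Hsp90ab1* 0.29. *Hspd1* and *Hspe1*, whose products form 1 chaperonin and which share the element shown above, had a rho of 0.088. *Hspa5* and *Hsp90b1* had 0.099, and the related lectin chaperones *Calr* and *Canx* 0.11. Among the 5 members with the endoplasmic reticulum stress element, median rho over 10 pairs was 0.098, and over the other 45 pairs of the arm it was 0.060. These pairs were picked for their known roles and not by size. *Hspa5* stood nearer to the other arms than to its own, with 0.36 to *Atf3*, 0.34 to *Ppp1r15a* and 0.33 to *Hspa8*. Its median rho was 0.090 to its own arm and 0.13 to the others. The medians had the same order for *Dnajb9* (0.037 and 0.14), *Herpud1* (0.057 and 0.065) and *Atf6* (0.026 and 0.057).

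The partner of largest rho lay in the same arm for 5 of 12 heat shock members. It did for 7 of 11 endoplasmic reticulum members and 9 of 12 Atf4 and oxidative members. Each member had more possible partners in the other arms than in its own. By median rho, 12 of 12, 7 of 11 and 9 of 12 members of these arms were closer to their own arm than to the others. *Calr* paired with *Hspa5* at 0.19, *Pdia3* with *Pdia6* at 0.19 and *Pdia4* with *Xbp1* at 0.14. *Nupr1*, *Gdf15*, *Hmox1*, *Cdkn1a*, *Ppp1r15a*, *Atf4* and *Ddit3* all had *Atf3* as their closest member. *Ddit4* and *Trib3* stood apart from their arm, with median rho to it of −0.044 and −0.016.

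**Figure D2:**
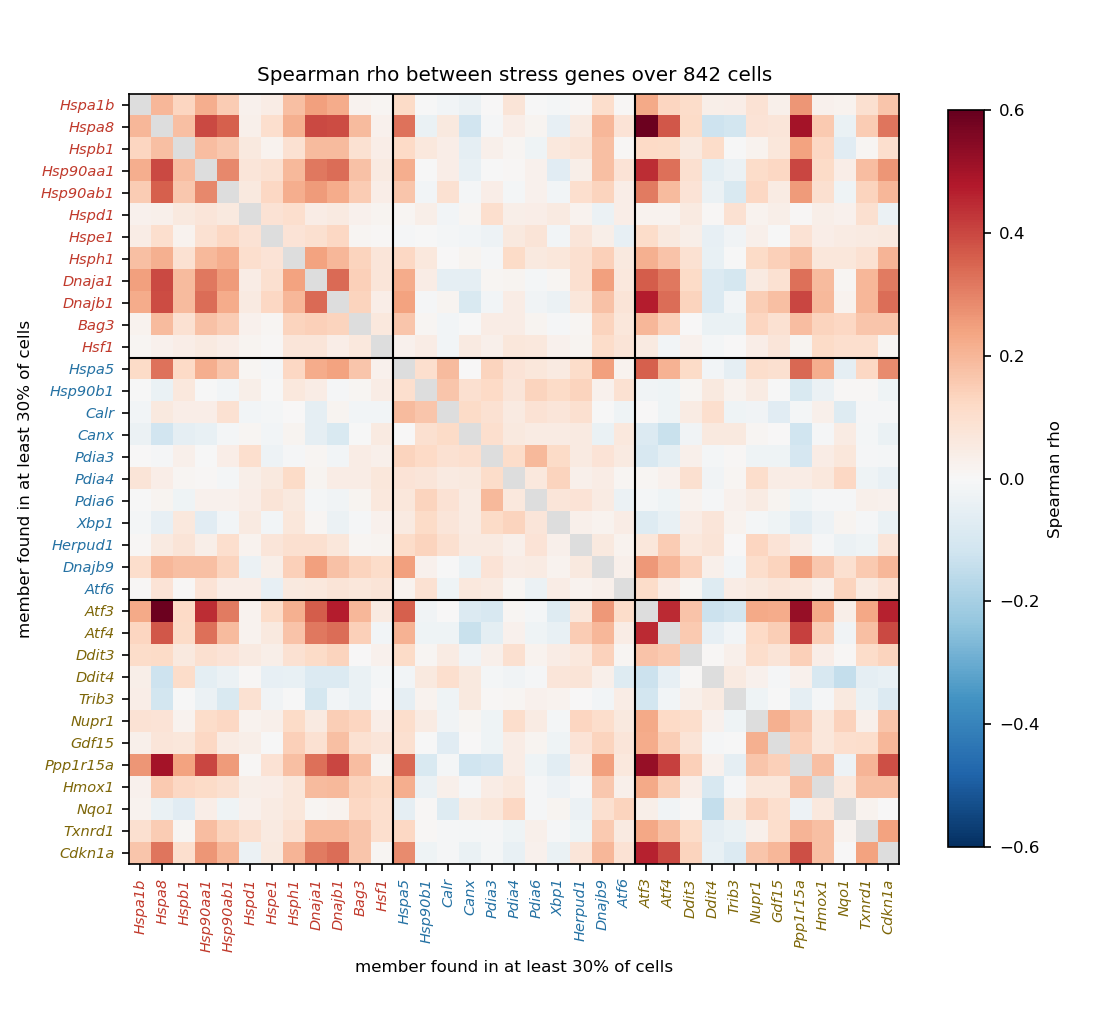
Spearman rho over all cells for all pairs of the 35 members found in at least 30% of cells, both axes ordered by arm (red, heat shock names; blue, endoplasmic reticulum; brown, Atf4 and oxidative) with black lines between arms. Red bands mark *Hspa8*, *Hsp90aa1*, *Dnaja1*, *Dnajb1*, *Hspa5*, *Atf3*, *Atf4*, *Ppp1r15a* and *Cdkn1a*, up to 0.59 for *Hspa8* with *Atf3*, and the endoplasmic reticulum block is pale with a median of 0.070.

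Many of the correlated members also followed the immediate early genes. The mean value of 27 immediate early genes, none of them a member, had a rho above 0.2 with 17 of the 35 members, against 4.29% of 5410 genes. *Atf3* had a rho of 0.73 with it, the highest of those 5410 genes, *Ppp1r15a* 0.66, *Hspa8* 0.66, *Dnajb1* 0.54 and *Atf4* 0.52. In the heat shock arm 9 of 12 members were above 0.2 and in the Atf4 and oxidative arm 6 of 12. In the endoplasmic reticulum arm only *Hspa5* at 0.34 and *Dnajb9* at 0.31 were, and *Canx* was at −0.16. Of the 72 member pairs with a rho above 0.2, 68 lay within those 17 members. With the immediate early mean regressed out, 4 pairs were above 0.2 and *Hspa8* with *Atf3* was at 0.20. With reads and genes per cell regressed out, 64 were.

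The immediate early mean had a broad upper peak and a smaller lower one: 23.5% of cells lay from 1.5 to 1.75, 6.18% from 0.75 to 1 and 10.6% from 0.5 to 0.75. Cells above 1 were 69.5% of all and held a median of 388733 reads, against 284673 in the others. This threshold was chosen after the values were seen. Between these groups, by a log2 ratio of mean reads per 10000 plus 1, 21 of the 37 members that passed a filter of 30% of the cells of either group were at least 0.3 higher above the threshold and 2 were at least 0.3 lower, where 5.09% of 5700 genes were higher and 4.02% lower. *Atf3* was at 2.73 ± 1.33 above it and 0.416 ± 0.585 below it, a log2 ratio of 3.91. *Ppp1r15a* was at 2.74 ± 0.904 and 0.831 ± 0.915, and *Dnajb1* at 1.45 ± 1.01 and 0.425 ± 0.616. These levels overlapped between the groups.

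By arm, 10 of 13 heat shock members, 9 of 12 Atf4 and oxidative members and 2 of 12 endoplasmic reticulum members were higher. *Hspa8* was found in every cell of both groups, at 4.05 ± 0.570 and 3.17 ± 0.654. *Hspa1a*, counted among the 10, was found in 35.9% and 14.01% of cells and so passed the filter only through the group where it was high. *Canx* and *Xbp1* were the members that lay lower, with log2 ratios of −0.38 and −0.34, and *Hsp90b1*, *Pdia6* and *Pdia3* lay between −0.21 and −0.20. *Hspa5* was at 2.02 ± 0.709 above the threshold and 1.28 ± 0.836 below it, unlike the other abundant chaperones of its arm. The part of the difference in depth in these ratios was not tested.

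Summed over each arm, a cell held a median of 93.05 reads per 10000 of heat shock members (10th to 90th percentile 44.5–172.5), 26.5 of endoplasmic reticulum members (15.4–44.5) and 47.5 of Atf4 and oxidative members (8.74–128.7). The Atf4 and oxidative sum was thus the most uneven. The correlation (rho) with the immediate early mean was 0.72, 0.072 and 0.76, and with total reads it was 0.019, 0.040 and −0.018. The correlation (rho) with the mitochondrial percent was −0.22, −0.041 and −0.26. The heat shock and Atf4 sums had a rho of 0.63 with each other, and lower values with the endoplasmic reticulum sum, at 0.16 and 0.090. With the immediate early mean regressed out, the heat shock and endoplasmic reticulum sums still had a rho of 0.16. The largest member made up 51.8% of the heat shock sum (*Hspa8*), 24.7% of the endoplasmic reticulum sum (*Hspa5*) and 33.8% of the Atf4 and oxidative sum (*Atf3*). The sums thus weigh a few members most and do not describe each member of an arm.

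Within the cells above the immediate early threshold the heat shock and Atf4 sums had a rho of 0.34, within the others it was 0.15, and with the mean regressed out it was 0.18. Of the 84 cells (10%) highest for heat shock, 24 (28.6%) were also in the top 84 for Atf4 and oxidative members. In the top 84 for the endoplasmic reticulum were 15 (17.9%), and 5 cells were in all 3. Unrelated sums would share about 10% for each pair of arms. The genes most like the heat shock sum were *Fosb* at 0.64, *Zfp36* at 0.63, and *Junb* and *Egr1* at 0.61. Those most like the Atf4 and oxidative sum were *Zfp36* and *Junb* at 0.68 and *Fosb*, *Socs3* and *Egr1* at 0.65. The endoplasmic reticulum sum had no such partner: its nearest genes were *Tuba1a* at 0.20, *H3f3b* at 0.18, *Litaf* at 0.17, *Pdlim1* at 0.16 and *P4hb*, a disulfide isomerase, at 0.15.

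**Figure D3:**
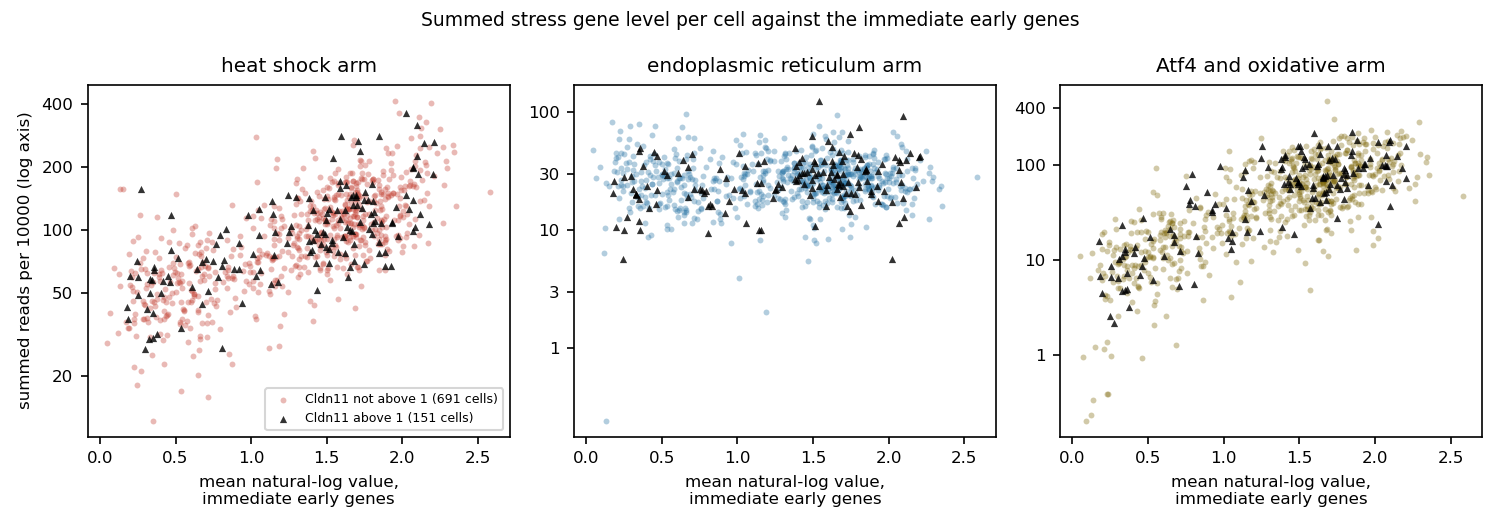
Summed reads per 10000 of the members of each arm (vertical, log axis) against the mean natural-log value of 27 immediate early genes (horizontal) in each cell, with black triangles for the cells with *Cldn11* above 1. The heat shock and Atf4 sums climb with the immediate early mean (rho 0.72 and 0.76), while the endoplasmic reticulum sum stays level (rho 0.072), and the triangles lie among the other cells.

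Cells with *Cldn11* above 1 stood 0.3 or more above the rest, as a log2 ratio, for 3 stress genes, all of the Atf4 and oxidative arm, and below it for 0. *Cldn11*, a tight junction gene, was among the study's markers of valve LECs. The groups held 17.9% and 82.1% of cells, and 29 cells lay within 0.1 of the threshold, from 0.995 just below to 1.01 just above, so the group is a range of values and not a cell type. Median reads were 322571 and 360540, median genes 4313 and 4176, and the mitochondrial percent 1.64 and 1.80. The immediate early mean was 1.31 ± 0.580 and 1.29 ± 0.575, and 9 and 37 cells held markers of another cell type. *Lyve1* was above 1 in 35.1% (27.5–43.3%) and 51.2% (47.4–55.02%).

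Of the 43 members, 37 passed the 30% filter, 3 were at least 0.3 higher by log2 ratio and 0 at least 0.3 lower, where 1.46% of 5767 genes were higher and 1.82% lower. *Nupr1* was found in 76.2% of cells with *Cldn11* above 1 (68.5–82.7%) and in 64.7% of the rest (61–68.3%), at log values of 1.32 ± 1.12 and 0.799 ± 1.02 and medians of 1.37 and 0.111, for a log2 ratio of 0.57. *Gdf15* was found in 52.3% and 47.2%, at 0.699 ± 1.24 and 0.494 ± 1.02, for a log2 ratio of 0.44. *Cdkn1a* was found in 81.5% and 74.96%, at 1.29 ± 1.05 and 1.03 ± 1.04, for a log2 ratio of 0.31. *Nupr1* ran up to 4.104 and 4.81, *Gdf15* up to 4.004 and 5.67, and *Cdkn1a* up to 3.75 and 3.52, each from 0 in both groups, so the groups overlapped throughout and the difference of means was smaller than the SD over cells. In mm10, *Nupr1* lies at chr7:126623249-126630861 and *Gdf15* at chr8:70629393-70632456, both on the minus strand, and *Cdkn1a* at chr17:29090976-29100727 on the plus strand.

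*Ddit4*, *Dnajb1* and *Hspa5* came next without reaching 0.3. *Ddit4* was found in 69.5% (61.5–76.8%) and 82.3% (79.3–85.1%), with a log2 ratio of −0.296, just short of the threshold. *Dnajb1* was at 0.29 and *Hspa5* at 0.27. Medians over the members that passed were 0.025 in the heat shock arm, −0.054 in the endoplasmic reticulum arm and 0.11 in the Atf4 and oxidative arm, against −0.0099 over all genes tested. Over 11 alternatives, *Nupr1* kept at least 0.3 in 11, from 0.49 to 1.07, *Gdf15* in 8, from 0.10 among cells above the immediate early median to 1.09 with *Cldn11* above 2, and *Cdkn1a* in 4, from 0.18 to 0.37. Among cells with *Lyve1* not above 1, an alternative added after the data were seen, the ratios were 0.54, 0.31 and 0.26.

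The other genes of these pathways were mostly within 0.3 at this split. Some were abundant, such as the amino acid transporter subunit *Slc3a2*, found in 93.4% of cells with *Cldn11* above 1 and 94.5% of the rest. Past 0.3 in either direction were 0 of 20 further heat shock genes, 0 of 21 further endoplasmic reticulum genes, 0 of 13 further Atf4 target and amino acid genes and 0 of 6 p53 target genes that passed the filter. Of 12 further Nrf2 targets, *Fth1*, the ferritin heavy chain, was higher, at 4.54 ± 0.504 and 4.26 ± 0.655 with a log2 ratio of 0.32. Of 24 immediate early genes, *Nfkbia* was higher at 0.30. Of the marker lists, the LEC gene *Pdpn* was lower at −0.35 and the blood endothelial list lower in both genes that passed, *Plvap* at −0.34 and *Gpihbp1* at −1.09, while 0 of 4 valve markers passed 0.3. The summed blood endothelial list ran from 0 to 35.98 reads per 10000 in cells with *Cldn11* above 1, with a median of 1.81, and from 0 to 63.4 in the rest, with a median of 4.42. Its part in the result was not tested.

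**Figure D4:**
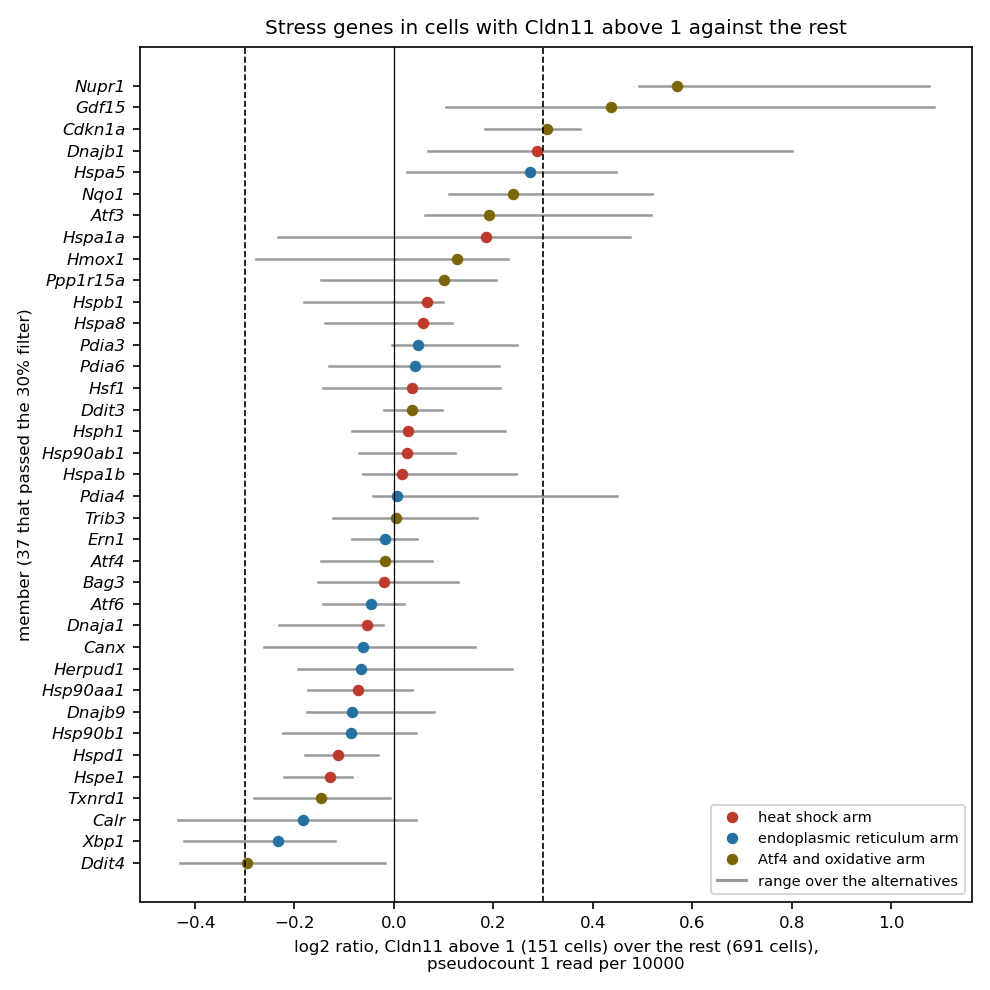
Log2 ratio of mean reads per 10000 plus 1 (horizontal) for the 37 members that passed the 30% filter, cells with *Cldn11* above 1 over the other cells, with points coloured by arm, grey lines for the range over the alternatives and dashed lines at 0.3 either way. *Nupr1* (0.57) keeps its whole range of 0.49 to 1.07 right of the dashed line, and the ranges of *Gdf15* and *Cdkn1a* cross it.

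**Figure D5:**
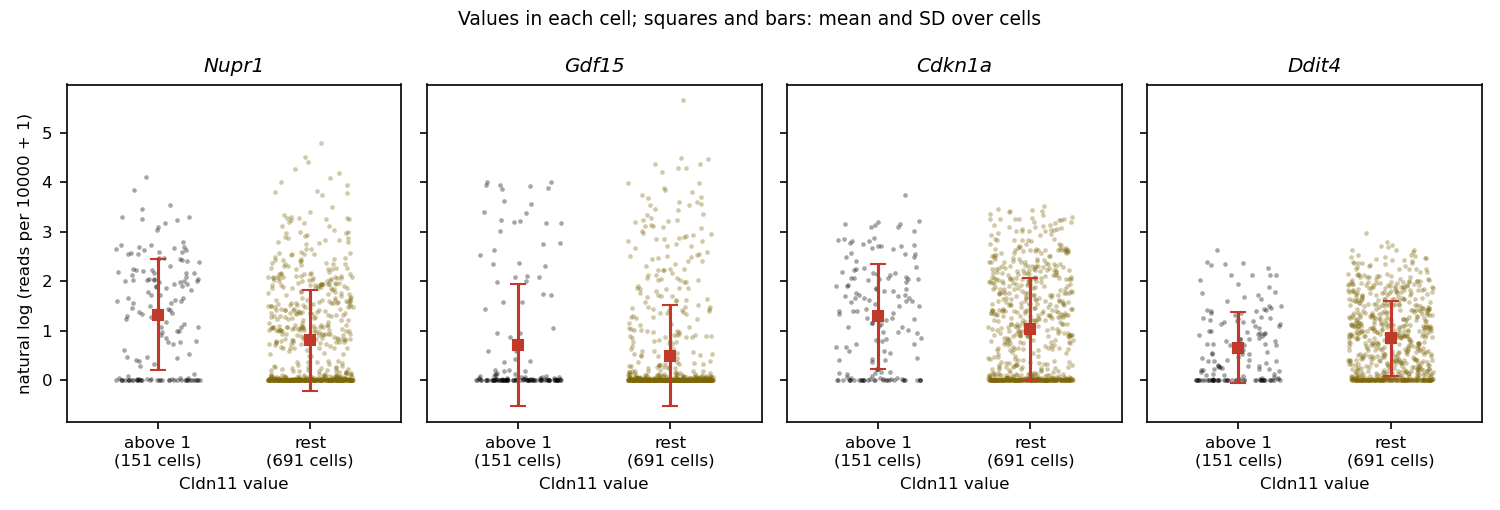
Natural-log value of *Nupr1*, *Gdf15*, *Cdkn1a* and *Ddit4* in each of the cells with *Cldn11* above 1 (black) and the other cells (brown), with squares and bars for the mean and SD over cells. The clouds overlap in all 4 genes, with means of 1.32 and 0.799 for *Nupr1*, 0.699 and 0.494 for *Gdf15*, 1.29 and 1.03 for *Cdkn1a* and 0.657 and 0.846 for *Ddit4*.

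*Gdf15* and *Nupr1* also stood 0.3 or more apart at splits by other subtype genes. The study's annotation used *Gja4* for downstream-valve LECs, *Lyve1* and *Foxp2* for precollecting LECs, *Stab2* and *Ptx3* for a capillary type and *Fndc1* for another, and these groups share cells. With *Lyve1* above 1 (48.3% of cells), 1 member was higher and 5 lower, where 2.75% of genes were higher and 2.17% lower. *Gdf15* was at 0.343 ± 0.810 there and 0.706 ± 1.23 in the rest, a log2 ratio of −1.30, and *Nupr1* and *Ppp1r15a* were at −0.72 and −0.71. *Calr* was the member that was higher, at 1.64 ± 0.794 and 1.41 ± 0.739, a log2 ratio of 0.37. Median reads were 297641 and 376870, and the immediate early mean was 1.23 ± 0.581 and 1.35 ± 0.565.

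With *Stab2* above 1 (31.2% of cells), 2 members were higher and 6 lower, where 5.41% of genes were higher and 4.53% lower. *Gdf15* was at −1.30 and *Atf3* at −0.62, and *Calr* and *Hmox1* were higher at 0.34, while the immediate early mean was 1.25 ± 0.599 and 1.31 ± 0.564. With *Fndc1* above 1 (16.9% of cells), 0 members were higher and 7 lower, against 3.1% and 2.68% of genes, with *Gdf15* at −0.89, *Nupr1* at −0.51 and *Hspb1* at −0.47. Those cells were deeper, with median reads of 460124 and 335356, and the immediate early mean was 1.21 ± 0.586 and 1.31 ± 0.573. With *Ptx3* above 1 (42 cells), 3 members were higher and 10 lower, against 9.99% and 6.86% of genes. There *Gdf15* was at −1.60, *Nupr1* at −1.45, *Dnajb1* at −1.30 and *Cdkn1a* at −1.15, while *Canx* and *Calr* were higher at 0.53 and 0.46. The immediate early mean was lower in those 42 cells too, at 0.943 ± 0.617 and 1.31 ± 0.568, and its part in these ratios was not tested. *Gdf15* was lower, and *Calr* higher, in cells above 1 for each of *Lyve1*, *Stab2* and *Ptx3*. The median sum of the blood endothelial list was also higher in these cells, at 4.89 and 2.56 reads per 10000 for *Lyve1*, 7.47 and 2.50 for *Stab2* and 6.87 and 3.53 for *Ptx3*, and its part in these ratios was not tested.

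With *Foxp2* above 1 (17.7% of cells), 3 members were higher and 0 lower, against 1.71% and 1.47% of genes, and these were *Gdf15* at 0.42, *Hmox1* at 0.41 and *Ppp1r15a* at 0.31. For *Hmox1* the mean log value was lower in these cells, at 0.532 ± 0.928 and 0.594 ± 0.838, and its ratio of means was carried by high cells. For *Gdf15* the mean log values were close, at 0.562 ± 1.105 and 0.524 ± 1.052. Median reads were 460549 and 322571, and the immediate early mean 1.36 ± 0.567 and 1.28 ± 0.577. With *Gja4* above 1 (240 cells), 2 members were higher and 6 lower, against 1.31% and 1.67% of genes. *Gdf15* was at −0.70 there, *Cdkn1a* at −0.51 and *Nupr1* at −0.38, and *Ddit4* and *Hmox1* were higher at 0.42 and 0.32, although the mean log value of *Hmox1* was 0.580 ± 0.906 there and 0.585 ± 0.834 in the rest. The immediate early mean was 1.23 ± 0.555 and 1.32 ± 0.583. *Hspa1a*, lower at this split and at *Fndc1*, and *Nqo1*, lower at *Stab2*, passed the filter only through the rest, where they were higher. Within the *Cldn11* cells, the 52 with *Gja4* above 1 had 3 members higher and 7 lower than the other 99, against 5.62% and 4.55% of genes, with *Gdf15* at 0.307 ± 0.874 and 0.906 ± 1.35, a log2 ratio of −1.22, and *Nupr1* at −0.32. Cells with *Cldn11* not above 1 were at 0.494 ± 1.02 for *Gdf15*, between these groups.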

How the data were processed

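Adult nasopharyngeal LECs were sorted into wells and sequenced by Smart-seq3, and 842 of 1536 wells were in the deposited matrix. Per the study's methods and the labels, reads were mapped by the authors on mm10 using STAR and assigned to genes by featureCounts, and they kept cells with over 2000 genes and under 10% mitochondrial reads and normalized with Seurat 4.1.0. The deposited values are natural log values of reads per 10000 plus 1. The methods name log2, but exponentials sum to 10000 in each cell only with base e (3406.6–5018.7 with base 2). Whole reads were recovered for 100% of values within 0.01 of a read. Reads are not molecules, and strand and multiple mapping are not given in the sources used here.

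The members and gene lists were chosen with earlier results of these data known. A gene was found in a cell with at least 1 read. Groups were compared by the log2 ratio of their mean reads per 10000, each with a pseudocount of 1 added. Tested genes had a read in 30% or more of either group's cells, and genes past 0.3 are named with those just short of it. With 1 sample there are no p-values. Shares carry exact Clopper-Pearson 95% intervals. Correlations are Spearman's, among genes found in at least 30% of cells. The 10 largest pairs, the 5 genes most like each arm and pairs chosen by hand are named, except 1 gene that is not reported here. The lists were 27 immediate early genes, further heat shock, endoplasmic reticulum, Atf4, Nrf2 and p53 genes, and markers of LECs, valve LECs, blood endothelial, immune, fibroblast, epithelial, mural and Schwann cells. Of the last 5 lists, 0 genes passed the filter between the *Cldn11* groups. Thinning to 20000 reads kept 791 cells and left out 51. Cells with *Cldn11* above 1 numbered 151 and the rest 691, cells with an immediate early mean above 1 numbered 585 and the rest 257, and cells above 1 numbered 407 for *Lyve1*, 263 for *Stab2*, 142 for *Fndc1* and 149 for *Foxp2*. Member pairs numbered 595. Exon lengths from GENCODE were matched for 22272 genes. The scripts were tested on simulated data and ran in Python 3.11.15, NumPy 2.4.6, pandas 2.3.3, SciPy 1.17.1 and matplotlib 3.10.9. Alternatives changed the pseudocount, the thresholds, the filters and the cells.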

Additional observations from a re-analysis of the deposited data

How the results depend on the processing

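With *Cldn11* above 1 against the rest, 3 members were at least 0.3 higher and 0 at least 0.3 lower. With a pseudocount of 0.1 these counts were 7 and 2. With any *Cldn11* read (above 0), 1 member was higher, and with *Cldn11* above 2 (36 cells) 5 were higher and 1 lower. Thinned to 20000 reads, 1 was lower, and among cells at or below the immediate early median 3 were lower. Among cells with *Lyve1* not above 1, an alternative chosen after seeing the data, 5 were higher. The share of all genes past 0.3 at each of these settings is not given here. These counts therefore do not show whether members moved more than other genes. For the thinned cells and those at or below the immediate early median, only the lower count is given. The count of members found in at least 30% of cells went from 35 to 21 where a value above 1 was asked for. The rho of 0.63 between the heat shock and Atf4 sums went to 0.18 with the immediate early mean regressed out, to 0.34 in cells with that mean above 1 and to 0.15 in those not above 1, where the rho of the endoplasmic reticulum and Atf4 sums went from 0.090 to −0.058, and these alternatives were also chosen after seeing the data. The cause of these changes was not tested. With the immediate early mean regressed out, median rho went from 0.13 to 0.060 over heat shock pairs, from 0.070 to 0.074 over endoplasmic reticulum pairs and from 0.088 to 0.057 over Atf4 and oxidative pairs, and pairs above 0.2 went from 72 to 4. The endoplasmic reticulum pairs, and not the heat shock pairs, then had the largest median. The 35 recomputed shares of reads in the top 5% of cells shifted by less than 10 percentage points. No paired analysis was possible because the cells are 1 group with no mouse or plate in the labels, and for the same reason no replicate could be left out. Reads per cell limit the genes found in few cells most.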

Other observations

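The genes nearest to single stress genes over all cells included members and other genes. *Hspa5* was nearest to *Sertad1*, with a Spearman rho of 0.38, then to the members *Atf3* and *Ppp1r15a*, with 0.36 and 0.34, and to *Ubb*, a ubiquitin gene of the further heat shock list, with 0.34. *Gdf15* was nearest to the long non-coding RNA *Neat1* and to *Gem*, a small GTPase, with 0.25 and 0.24, and then to *Nfat5*, the factor of the response to high salt, with 0.24, and to *Slc5a3*, a myo-inositol transporter, with 0.22. *Hmox1* was nearest to *Sertad1*, *Socs3* and *Irf1*, with 0.25, 0.24 and 0.23. *Hspb1* was nearest to *Dusp1*, *Junb* and *Egr1*, with 0.30, 0.29 and 0.28. These values are a description, and the cells share wells, depth and digestion.

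Cells highest for the summed stress members were found among cells with and without *Cldn11* above 1. Of the 84 cells highest for the heat shock sum 14 had *Cldn11* above 1 (16.7%, exact 95% interval 9.42–26.4%), of those highest for the endoplasmic reticulum sum 15 (17.9%, 10.4–27.7%), and of those highest for the Atf4 and oxidative sum 17 (20.2%, 12.3–30.4%), where 17.9% of all cells did. The median Atf4 and oxidative sum was 61.7 reads per 10000 in cells with *Cldn11* above 1 and 44.1 in the rest. The 10th to 90th percentiles were close, at 8.749–130 and 8.735–127.5, and the rho of this sum with *Cldn11* was 0.10.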
